A study of Mus musculus with 2 samples.

Results

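Internal alternative promoters are places inside a coding gene where an annotated transcript begins well downstream of the gene's most upstream transcript. DNase I, a nuclease that cuts DNA where chromatin is open, had been used to map accessible sites in mouse adipocytes, and 1135 of the 117590 sites found in both libraries lay at such a start. They were chosen from the annotation and from peak positions, without using the strength of any peak. A start was internal when a protein-coding transcript of an autosomal gene began at least 5000 bp downstream of that gene's most upstream coding transcript and more than 5000 bp from the starts of every other gene. A site was kept when each library had a peak centre within 500 bp of the same gene's internal start. The 1135 sites made up 0.992% of the 114395 shared sites on autosomes and fell in 793 genes.

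The adipocytes were obtained by in vitro differentiation of 3T3-L1, a mouse preadipocyte line of fibroblast-like appearance, and were harvested on day 8. The 2 libraries, named by the labels as biological replicates 1 and 2, formed 1 group, each joined more than 1 technical replicate, and both carried one donor record and the strain label C57BL/6J. No undifferentiated or untreated library was analysed here, so no result compares conditions. The labels leave unsaid if the cultures were separate, so a spread between replicates may be technical.

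A promoter is the stretch around a transcription start where general factors and RNA polymerase assemble, and in active promoters it is depleted of nucleosomes and cut readily by DNase I. Many mammalian genes have more than 1 promoter. The use of a downstream promoter changes the first exon, and where it lies beyond the first coding exon it can also remove or replace the amino-terminal part of the protein. In fat cells the best-known case is Pparg, which encodes the master nuclear receptor of adipogenesis and whose downstream promoter gives the adipocyte-enriched PPARγ2 form. Accessibility at a start does not measure transcription from it, and in a bulk library it cannot be told in how many of the cells a site was open.

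The bases just before the start differed widely among the internal promoters, and 10 windows are shown to make the contrast between CpG-poor and CpG-rich starts visible. Each holds the 150 bp that end right before the annotated start, on build GRCm38, written in the gene's direction and lying outside annotated exons. Capitals mark every CG dinucleotide. The first pair is from Pparg, whose upstream window held 20 CG dinucleotides and 78% G and C, and whose internal window, 61115 bp downstream, held 1 and 38.7%. The internal window carried CCAAT, the letters bound by the factor NF-Y, at -144 and at -22 from the start.
Pparg internal start, chr6:115421916-115422065, plus strand: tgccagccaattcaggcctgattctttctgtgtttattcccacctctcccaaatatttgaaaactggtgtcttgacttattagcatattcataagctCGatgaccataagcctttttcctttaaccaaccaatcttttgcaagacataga
Pparg upstream start, chr6:115360801-115360950, plus strand: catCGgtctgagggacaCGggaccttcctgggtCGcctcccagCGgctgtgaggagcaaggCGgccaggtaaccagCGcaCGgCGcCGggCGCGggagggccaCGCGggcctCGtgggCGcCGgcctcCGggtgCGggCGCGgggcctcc

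Lipe, Cd36 and Ppargc1a also had CpG-poor internal starts, with 1, 1 and 2 CG dinucleotides in the window. Lipe encodes hormone-sensitive lipase, Cd36 a fatty acid transporter of the cell surface, and Ppargc1a the coactivator PGC-1α. The upstream window of Lipe, which belongs to the longer form of the lipase known from testis, had 1 CG dinucleotide as well, within a GGGCGG box at -79.
Lipe internal start, chr7:25390107-25390256, minus strand: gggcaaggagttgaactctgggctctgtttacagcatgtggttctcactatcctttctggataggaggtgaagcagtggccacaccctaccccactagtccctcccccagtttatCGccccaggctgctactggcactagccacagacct
Lipe upstream start, chr7:25398711-25398860, minus strand: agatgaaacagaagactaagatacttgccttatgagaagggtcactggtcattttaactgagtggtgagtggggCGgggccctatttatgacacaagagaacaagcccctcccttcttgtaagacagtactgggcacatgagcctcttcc
Cd36 internal start, chr5:17835718-17835867, minus strand: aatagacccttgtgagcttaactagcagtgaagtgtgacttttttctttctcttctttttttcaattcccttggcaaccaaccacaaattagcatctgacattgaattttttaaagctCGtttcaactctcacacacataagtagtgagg
Ppargc1a internal start, chr5:51553923-51554072, minus strand: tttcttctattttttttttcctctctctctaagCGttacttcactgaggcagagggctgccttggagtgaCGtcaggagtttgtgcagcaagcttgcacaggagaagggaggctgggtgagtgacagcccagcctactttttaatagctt

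CpG-rich internal starts are shown by Tpm1, Runx1 and Snd1, with 10, 12 and 9 CG dinucleotides. Tpm1 encodes a tropomyosin of actin filaments, and both of its starts were CpG-rich, with 14 CG dinucleotides in the upstream window. Runx1 is a transcription factor with a distal and a proximal promoter, and the window shown lies at the proximal one. Snd1, a nuclease-like protein of RNA metabolism, had the highest peak of all 1135 by the lower of its 2 percentiles, with GGGCGG at -90 and -20 and ATTGG, the reverse complement of CCAAT, at -63 and -30.
Tpm1 internal start, chr9:67043963-67044112, minus strand: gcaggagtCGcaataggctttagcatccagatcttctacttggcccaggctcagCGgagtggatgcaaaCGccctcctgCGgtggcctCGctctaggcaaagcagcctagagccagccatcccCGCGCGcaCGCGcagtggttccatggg
Tpm1 upstream start, chr9:67049407-67049556, minus strand: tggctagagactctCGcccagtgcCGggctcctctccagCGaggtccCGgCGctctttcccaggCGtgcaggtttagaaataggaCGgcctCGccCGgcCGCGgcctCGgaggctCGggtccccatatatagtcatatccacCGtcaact
Runx1 internal start, chr16:92697329-92697478, minus strand: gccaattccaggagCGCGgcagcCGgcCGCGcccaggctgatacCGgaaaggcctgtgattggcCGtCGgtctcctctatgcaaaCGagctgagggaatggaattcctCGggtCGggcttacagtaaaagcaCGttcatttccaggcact
Snd1 internal start, chr6:28480198-28480347, plus strand: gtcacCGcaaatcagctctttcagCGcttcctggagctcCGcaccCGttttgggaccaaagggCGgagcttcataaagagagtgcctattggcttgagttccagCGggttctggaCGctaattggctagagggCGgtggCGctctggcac

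Whole-series facts that touch these results were few. Replicate 1 held 133695 peaks and replicate 2 held 216556 on the assembled chromosomes. The deposited value of a peak ran from 1 to 150 in each list, with medians of 45 and 69, so values were compared only as percentiles within a library. Sequencing depth was unknown. Of adipocyte markers, 10 of 10 had a peak of both libraries at a start, against 4 of 6 for preadipocytes and fibroblasts (Col1a1 and Dlk1 lacked it). None of 5 blood, 4 endothelial and 4 epithelial markers had one, and of 4 muscle markers only Acta1 did.

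Of the 20722 autosomal coding genes, 4130 (19.9%) had at least 1 internal start. Their 7926 internal starts formed 6338 groups when starts of a gene within 500 bp of one another were joined. A peak was found at 15.2% of the groups in replicate 1 and at 19.5% in replicate 2, a mean of 17.3% ± 3.01 (SD, n = 2). Both libraries had one at 930 groups, or 14.7%, with an exact binomial 95% interval of 13.8% to 15.6% that covers counting error only. By the same rule for peaks 49% of the upstream starts of all genes were open in both libraries. The upstream starts of genes with internal starts gave 52.7%. An internal start was thus open less often than an upstream start in each library, 15.2% against 49.6% in replicate 1 and 19.5% against 52.8% in replicate 2. Upstream starts were not required to lie over 5000 bp from other genes' starts, so a peak there may also belong to a neighbouring gene.

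The completeness of the annotated transcript divided the internal starts. In 2386 groups (37.6%) every transcript was tagged as incomplete at its 5′ end, so that the annotated start is only where the evidence begins. Of these, 4.61% were open in both libraries, against 20.7% of the 3952 groups with a complete transcript. Groups with the start of a RefSeq mRNA within 100 bp were open in 29.5% of 1686 cases, and groups without one in 9.31% of 4652. Around complete internal starts, peak centres of shared sites piled up in the 100 bp before the start, at 8.25 and 8.15 per 100 starts in replicates 1 and 2. Between 1500 and 1400 bp before the start the numbers were 0.886 and 0.962. Around incomplete starts no such rise was seen, with 0.671 and 0.503 per 100 starts in the last 100 bp and 0.461 in each library between 1500 and 1400 bp before.

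**Figure D1:**
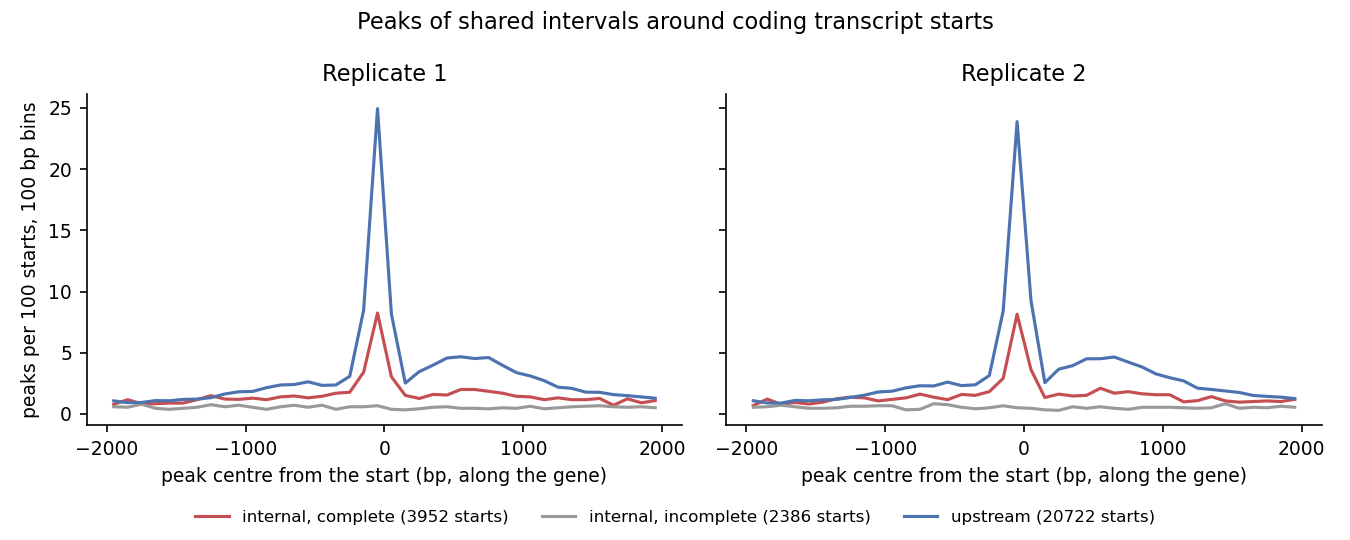
Peak centres of shared sites per 100 starts in 100 bp bins (y) by position from the start along the gene in bp (x), for replicate 1 (left) and replicate 2 (right). Upstream starts of all 20722 genes reach 24.9 and 23.9 in the bin before the start, complete internal starts 8.25 and 8.15, and incomplete internal starts stay flat.

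The share of open starts varied little with distance into the gene. Complete groups were open in both libraries in 18.2% of cases at 5 to 10 kb from the upstream start, 22.0% at 10 to 20 kb, 21.9% at 20 to 50 kb, 23.1% at 50 to 100 kb and 19.1% beyond. Their exact 95% intervals overlapped, the lowest reaching from 15.8% to 20.8% and the highest from 19.7% to 26.8%. The open sites lay a median of 26322 bp from the upstream start, with quartiles of 11670 and 65983.5 bp. The farthest was in Fgfr2, a fibroblast growth factor receptor, 2857087 bp from the most upstream start that the annotation gives to that gene. Most genes had a single open internal site (560 of 793), 166 had 2 and 67 had 3 or more, up to 7.

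The gene's upstream start was open in both libraries in 415 of the 793 genes (52.3%) and in neither in 318 (40.1%). In 55 genes (6.94%) 1 library had a peak there, and in 5 genes the libraries had peaks in different merged sites. Among all coding genes 46.9% had no upstream peak in either library, and among the 3337 genes with internal starts but no open one 43.1% had none, so the share of closed upstream starts was near the background. Read the other way, 14.2% of internal start groups were open in genes with an open upstream start and 14.4% in genes with a closed one. Of the 318 closed upstream starts, 295 genes also lacked a peak at every other coding start within 5 kb of it, and 22 had peaks of both libraries at another such start.

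The upstream start is upstream by position only and need not be the gene's main start. A RefSeq mRNA began within 100 bp of 71.1% of the 415 open upstream starts but of 45.9% of the 318 closed ones. Upstream starts of all genes also differed by state, with 83.3% of open and 64.9% of closed ones. Of the 440 internal starts in the genes with a closed upstream start 55.9% had a RefSeq start, and of the 500 in genes with an open one 44.6%. In Snd1 the transcript from the closed upstream start had 30 annotated coding bases, and the one from the internal start 2730. Rreb1, a zinc finger transcription factor, had 36 against up to 5262, and Cd36 had 427 against 1416. Annotated lengths can be those of partial transcripts, since ones incomplete at the 3′ end were not set aside. Which start these cells transcribe from was not tested.

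Peaks at internal starts ranked lower than upstream peaks and higher than other sites inside the same genes. Their median value was 64 in replicate 1 and 111 in replicate 2, at percentiles 71.5 and 83.8. Upstream peaks of the same genes stood at 89.8 and 93.9. The 5961 other shared sites in these genes, over 1000 bp from any annotated start, had medians of 54.1 and 69.7. Complete starts gave 74.9 and 85.4, and the 120 sites at incomplete starts 43.3 and 69.3, below the other intragenic sites in replicate 1.

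Within a gene, the internal peak usually ranked below the upstream one. The highest peak within 500 bp of the upstream start was set against every internal site, weaker ones of a gene included. Of 560 internal sites in the 415 genes with an open upstream start, 354 (63.2%) ranked lower in both libraries, 152 (27.1%) ranked higher in both and 54 changed order between libraries. The median difference, internal minus upstream, was -11.1 percentile points in replicate 1 and -6.08 in replicate 2. Of other intragenic sites of these genes, 14.6% ranked higher than the upstream peak in both libraries and 78.7% lower, with median differences of -26.5 and -18.2. That gap was not seen when the strongest site of each kind was taken per gene. Of the strongest internal sites of the 415 genes, 29.9% ranked above the upstream peak in both libraries and 59.8% below. Of the strongest other sites, in the 361 of these genes that held one, 32.7% ranked above it and 56.5% below. The genes held 3304 other sites against 560, so a strongest site was drawn from more candidates.

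**Figure D2:**
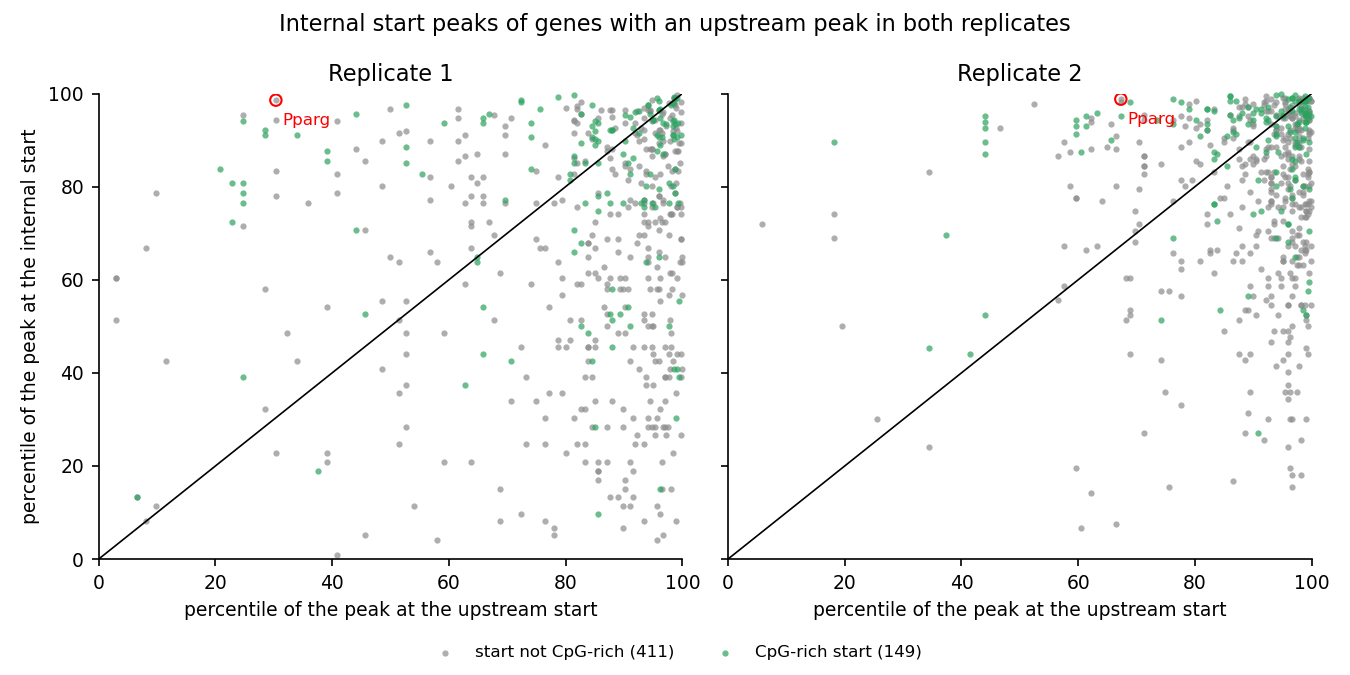
Percentile of the peak at the internal start (y) against that of the peak at the gene's upstream start (x) for the 560 sites, in replicate 1 (left) and replicate 2 (right), with the line of equality. Points are green where the internal start was CpG-rich (149) and grey where not (411), and the circle marks Pparg, far above the line in both libraries.

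The strongest internal peaks were among the top peaks of each library. The 10 highest by the lower of their 2 percentiles were in Snd1, Rbpj, Srrm2, Bicdl1, Sp2, Ssc4d, Zbtb6, Por, Chd8 and Tbc1d14, each at percentile 99.1 or higher in both libraries. Snd1 had values of 134 and 149, and Rbpj, the DNA-binding partner of Notch, 133 and 149. Srrm2, a scaffold protein of the spliceosome, had 131 and 149, and Por, the electron donor of microsomal cytochromes P450, 126 and 148. Of the 10 genes, 7 had no peak at the upstream start in either library, against 40.1% of all 793 genes, and 10 are too few to weigh that difference. The exceptions were Sp2 (132 and 147 against 77 and 115 upstream), Zbtb6 (127 and 147 against 122 and 145) and Chd8 (132 and 146 against 125 and 147).

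Dcun1d4, Aktip and Fpgs completed the 10 strongest sites in genes without an upstream peak. Fpgs, which adds glutamate chains to folate, had values of 123 and 145. Of these 10 genes, 8 had a CpG-rich internal start, Bicdl1 and Ssc4d being the others. The share was 44.1% over all 440 open internal starts in genes with a closed upstream start. The 10 are too few to weigh that difference. The coding sequence from the internal start of Bicdl1 was 246 bases of 1731, with 1448 coding bases lying before it, and that of Ssc4d 402 of 1758.

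By the smaller of the 2 libraries' percentile gaps, the 5 sites that stood farthest above their upstream start were in Fam49b, Iigp1, Epb41l1, Prlr and Mllt10. Fam49b had values of 81 and 122 at the internal start and 28 and 46 upstream, and Mllt10, a partner of the histone methyltransferase Dot1l, had 73 and 132 against 30 and 64. Epb41l1, a protein 4.1 family member of the membrane skeleton, had 76 and 135 against 29 and 64. Prlr, the prolactin receptor, had 53 and 89 against 17 and 46, and Iigp1, an interferon-inducible GTPase, 53 and 93 against 17 and 35. In all 5 the internal start lay before the coding sequence, against 47.4% of all 1016 open internal starts, and 5 are too few to weigh that difference.

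By the same measure, which takes the smaller gap of the 2 libraries, the 5 that stood farthest below were in Deaf1, Slmap, Parp1, Hacl1 and Syne2. Their internal values lay between 18 and 25 in replicate 1 and between 44 and 47 in replicate 2, against upstream values of 72 to 112 and 116 to 143. In Deaf1, Slmap, Parp1 and Hacl1 the internal start was incomplete and lay in an exon of the upstream transcript. Over all sites with an open upstream start, 10.5% of the 76 at incomplete starts ranked above it in both libraries and 86.8% below, against 29.8% and 59.5% of the 484 at complete starts.

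Open internal starts had the peak just before the start, as upstream starts did. The median peak centre was at -45.5 bp in replicate 1 and -39.5 bp in replicate 2, against -44.5 and -41.5 bp at open upstream starts of all genes. In replicate 1 66.0% of centres and in replicate 2 64.8% lay before the start, against 72.7% and 70.3% upstream. Centres fell within 100 bp of the start at 45.8% and 48.0% of internal sites, and at 62.5% and 62.6% of upstream starts. At incomplete starts 22.5% were that close in each library.

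All 1135 sites lay in a hotspot, the authors' broader region of raised cutting, in both libraries. So did all 5961 other intragenic sites and all 415 open upstream starts of the same genes. The median hotspot width was 552 bp in replicate 1 and 993 bp in replicate 2. Other intragenic sites had 290 and 432 bp, and open upstream starts of the same genes 806 and 1474 bp. The hotspot's value stood at the ceiling of the deposited scale for 68.2% and 92.5% of the internal sites, 47.6% and 82.2% of the other intragenic sites, and 84.6% and 96.1% of the upstream starts. The order was the same in both libraries for width and for the ceiling. Sites of a gene often shared a hotspot. In Nr3c1, the glucocorticoid receptor, 6 of 7 sites lay in one of 4000 bp in replicate 2.

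CpG-rich sequence, here more than 50% G and C and a CpG ratio (observed over expected) above 0.6 in the 250 bp to each side, was found at 357 of the 1016 open internal starts (35.1%). Such sequence is known as the CpG island type of promoter, which most broadly expressed genes have. Of the 5080 internal start groups with no peak in either library, 203 (4.0%) were CpG-rich, and of those with a complete transcript 5.95%. Among the other intragenic sites 22 of 5961 (0.369%) were. Seen from the sequence, 58.8% of the 485 complete CpG-rich internal groups were open in both libraries and 15.4% of the 3467 others. Upstream starts gave 78.5% and 19.98%.

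The share of CpG-rich internal starts went with the state of the upstream start. It was 44.1% (194 of 440) where the upstream start was closed and 26.2% (131 of 500) where it was open. The upstream starts themselves were CpG-rich in 72 of 318 closed cases (22.6%) and 312 of 415 open ones (75.2%). Pairs in which both starts were CpG-rich numbered 146 of 1016 (14.4%), only the internal one 211 (20.8%), only the upstream one 363 (35.7%) and neither 296 (29.1%). CpG-rich internal starts ranked above the upstream peak in both libraries in 40.3% of 149 sites and below in 47.0%. Those that were not CpG-rich did so in 22.4% and 69.1% of 411. Peak values and CpG content thus moved together, with median percentiles of 82.6 and 91.3 at CpG-rich internal starts and 63.7 and 78.3 at the others, and the part of base composition in DNase I cutting was not tested.

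**Figure D3:**
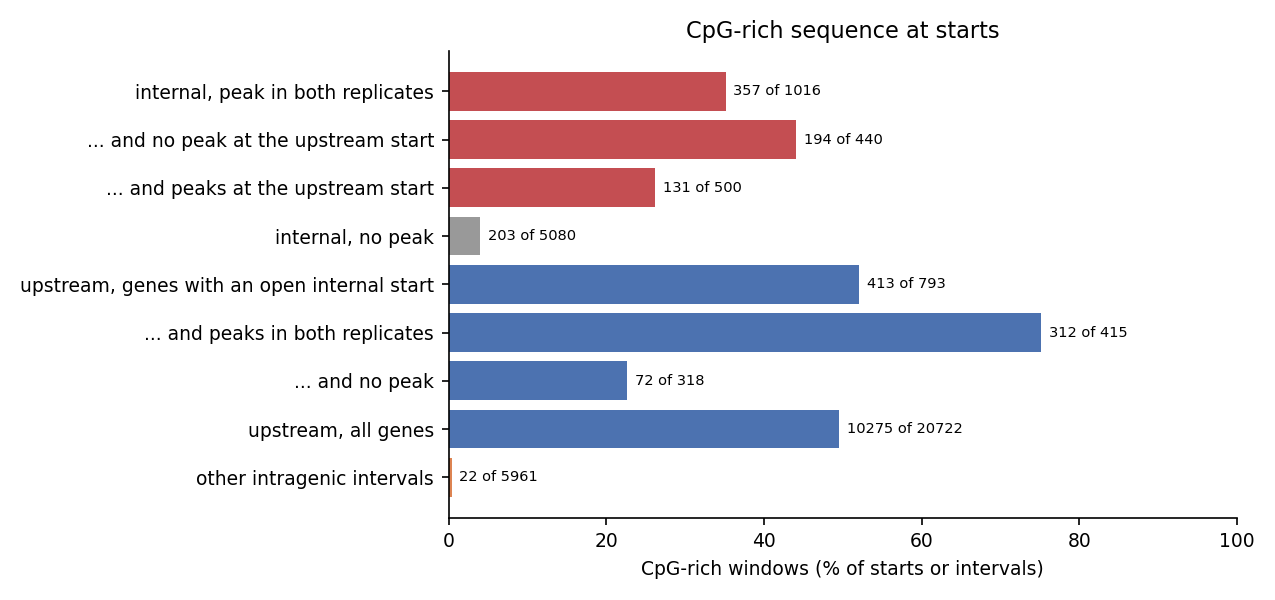
Share of windows that were CpG-rich (x, percent of starts or sites), with counts at the bar ends. Open internal starts (red, 35.1%) lie between internal starts with no peak (grey, 4.0%) and open upstream starts of the same genes (blue, 75.2%), and other intragenic sites are at 0.369%.

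The TATAAA box was rare at all starts. It lay between 40 and 20 bp before 4 of the 1016 open internal starts (0.394%), before 45 of 5080 closed ones (0.886%) and before 481 of all 20722 upstream starts (2.32%).

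Letters bound by known factors were counted in the 150 bp peak of replicate 1 on either strand, and a match describes the letters only. Motifs could overlap one another. GGGCGG, the Sp box, was in 28.5% of internal peaks, in 57.5% of those at CpG-rich starts and in 12.1% of the others, against 52.9% of upstream peaks of all genes and 3.14% of the other intragenic peaks. CCGGAAG, an ETS motif, was in 4.58%, against 16.0% upstream and 0.654% of the other intragenic peaks. CACGTG, the E-box, was in 3.96%, against 7.14% and 2.42%. CCAAT was in 21.2%, against 31.5% and 20.1%. For these 4 motifs the internal peaks lay between upstream and other intragenic peaks, nearest to the other intragenic peaks for CCAAT.

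The order ran the other way for 5 motifs. TGANTCA, bound by AP-1, was in 5.99% of internal peaks, 2.42% of upstream peaks and 10.4% of other intragenic peaks. TTGNNCAA, bound by the C/EBP proteins of adipocyte differentiation, was in 4.58%, 3.13% and 6.91%. Internal peaks at starts that were not CpG-rich held TTGNNCAA in 6.47% and TGANTCA in 7.58%, and those at CpG-rich starts in 1.22% and 3.18%. GGAATG, bound by TEAD, was in 8.46%, 5.66% and 10.3%, and the core of the CTCF site in 1.32%, 0.719% and 2.63%. The EBF motif was in 0.881%, 0.512% and 1.24%, the first being only 10 internal peaks. The full PPAR-RXR motif was found in 3 internal peaks and the full NFI palindrome in none, too few to order. The glucocorticoid receptor motif was in 7 (0.617%), against 0.0985% of upstream and 0.503% of other intragenic peaks. It thus did not follow the order of the 5, on a count nearly as small as that for EBF.

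Most open internal starts with a complete transcript lay in introns. Of 901 such starts, 821 (91.1%) were in an intron of the transcript from the upstream start, 50 in an exon and 30 past its end. The first intron held 454 (50.4%). Complete internal start groups without a peak were intronic in 69.5% of 2889 cases, and 782 of them were in exons. Of the 115 incomplete starts with an open site, 83 were in exons. Among all 5080 groups without a peak, complete or not, 2584 were in exons.

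Of the 901, 481 (53.4%) lay before the coding sequence of the upstream transcript, and 357 (39.6%) kept the same first coding base. Where coding bases were passed over, their median number was 184, or 16.2% of the upstream transcript's coding sequence. Coding lengths are as annotated, and transcripts incomplete at the 3′ end were not set aside, so a length can be that of a partial transcript. The coding sequence from the internal start was longer in 380, equal in 117 and shorter in 404. Where the upstream start was closed, it was longer in 211 of 404 and shorter in 149. Where the upstream start was open, it was longer in 143 of 427 and shorter in 224. Complete groups before the coding sequence were open in 19.5% of 2201 cases and those within it in 22.3% of 1751.

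Genes of 5 lists gave named examples, which were collected with earlier results of these data known, so their counts are not independent evidence. Among all 4130 genes with an internal start, 793 (19.2%) had an open one. The share was 16 of 37 (43.2%) for adipocyte regulators, 13 of 26 (50%) for lipid and glucose metabolism, 16 of 36 (44.4%) for hormone and growth factor signalling, 17 of 31 (54.8%) for cytoskeleton, adhesion and matrix, and 5 of 34 (14.7%) for genes known for alternative promoters in other lineages.

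**Figure D4:**
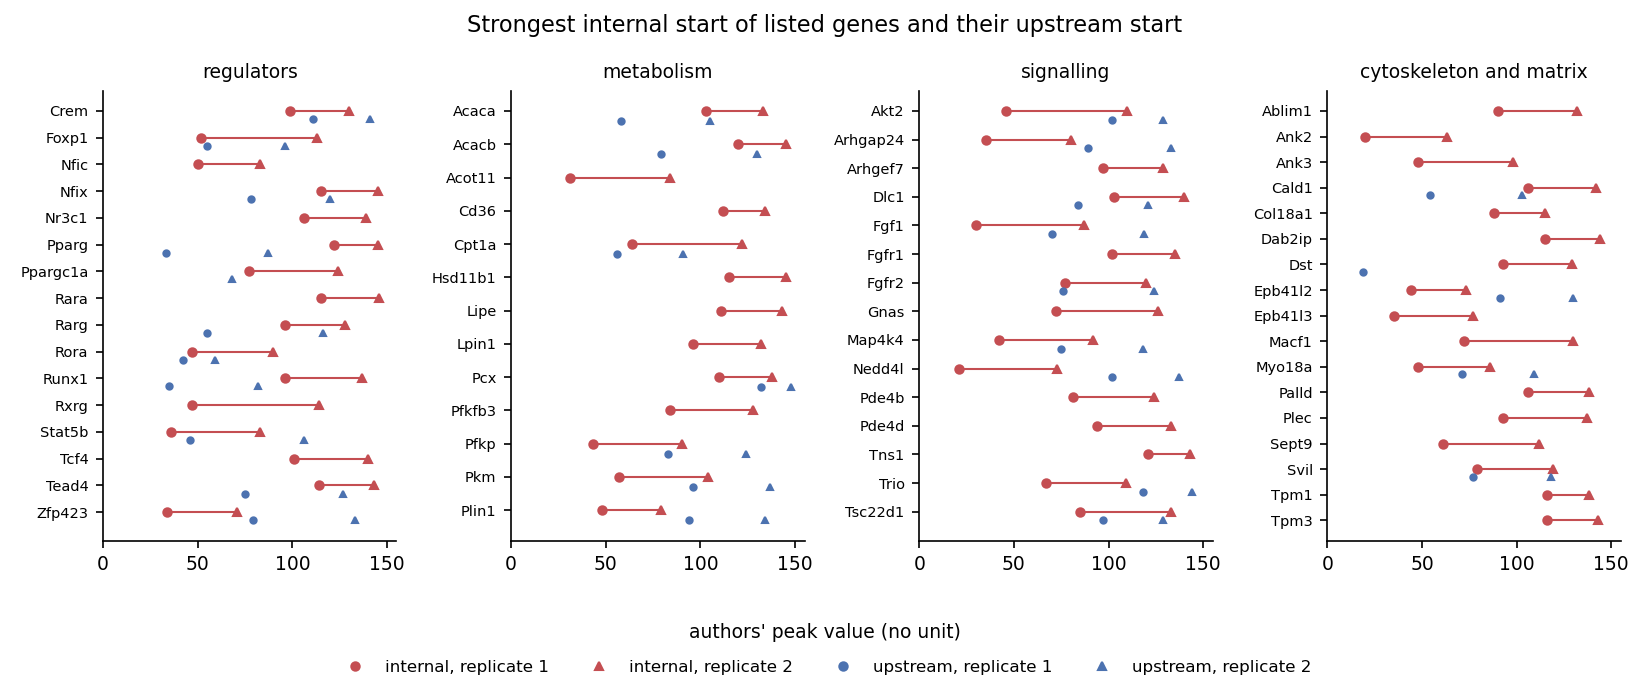
Deposited peak value (x, no unit) at the strongest open internal start of each listed gene reported here (red) and at its upstream start (blue), circles for replicate 1 and triangles for replicate 2, in 4 lists. Missing blue symbols mean no upstream peak, as in Lipe, Cd36, Tpm1 and Nr3c1, and values of replicate 2 lie above those of replicate 1 throughout.

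Among regulators, Pparg, Runx1, Tead4 and Nfix ranked higher at an internal start than upstream in both libraries. The internal peak of Pparg at chr6:115421836-115422025 had values of 122 and 145, at percentiles 98.6 and 98.8, and the upstream one 33 and 87, at percentiles 30.4 and 67.3. The start lay in intron 2 before the coding sequence, and its transcript codes for 1515 bases against 1425. The hotspot over it measured 1457 bp in replicate 1 and 7191 bp in replicate 2. Runx1 had 96 and 137 at the proximal start and 40 and 87 at another internal start, against 35 and 82 at the distal one. Tead4, a Hippo pathway factor, had 114 and 143 against 75 and 127. Nfix, a nuclear factor I protein, had 115 and 145 against 78 and 120, at a site centred 378.5 and 358.5 bp past the start. Its other site at that start, centred before it, had 83 and 113, and its order against upstream differed between libraries.

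Retinoid and orphan receptors followed different patterns. Rara, retinoic acid receptor alpha, had 115 and 146 at a start 9880 bp downstream and 81 and 126 at another, with no upstream peak. Rarg, the gamma receptor, had 96 and 128 and 86 and 129 at its internal starts, both above the 55 and 116 upstream. Rora had 47 and 90 against 42 and 59. Rxrg, a partner of PPARγ, had 47 and 114 with no upstream peak, a wide gap between libraries (percentiles 52.7 and 85.4).

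Ppargc1a had 77 and 124 at the internal start, 13804 bp downstream, and an upstream peak of 68 in replicate 2 only. Its internal start gives a coding sequence of 2391 bases. Crem had 99 and 130 at the intronic start known for ICER, the cAMP-inducible repressor, below the 111 and 141 upstream, and 547 coding bases lay before it. Stat5b, Zfp423 and the start farthest into Foxp1 also ranked below upstream in both libraries. Zfp423, a preadipocyte commitment factor, had 34 and 71 against 79 and 133.

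Nr3c1 and Tcf4 each had 7 open internal sites and no upstream peak. In Nr3c1 the values ran from 43 to 106 in replicate 1 and from 86 to 139 in replicate 2, and in Tcf4, a basic helix-loop-helix factor, from 30 to 101 and from 70 to 140. Rreb1 also had 7, from 46 to 61 and from 95 to 116, while Ccnd3, cyclin D3, and Abcg2, a drug transporter, had 5 each. Of the listed genes, Plec, Gnas and Pcx had 5 as well, and Pcx had an upstream peak in both libraries. The strongest site of Ccnd3 had 109 and 143 and that of Abcg2 58 and 114. Neither Rreb1, Ccnd3 nor Abcg2 had an upstream peak. The sites of a gene lie side by side and are not independent.

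In metabolism, 6 of the 13 genes with an open internal start had no upstream peak in either library, a share near the 40.1% over all 793 genes. Lipe had 111 and 143 at a start 8604 bp downstream, where 919 coding bases lay before it and the coding sequence was 2277 bases against 3216. Cd36 had 112 and 134 at 1 start and 79 and 122 at another. Lpin1, a phosphatidate phosphatase of triglyceride synthesis, had 96 and 132. Hsd11b1, which regenerates active glucocorticoid, had 115 and 145 at its strongest site, and Pfkfb3, a regulator of glycolysis, 84 and 128. Acot11, an acyl-CoA thioesterase, had 31 and 84.

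The acetyl-CoA carboxylases ranked higher at internal starts. Acacb had 120 and 145 against 79 and 130 upstream, with 623 coding bases before the start and 438 coding bases in its transcript against 7344. Acaca had 103 and 133 and 70 and 114 at internal starts against 58 and 105. At the weaker of these the transcript codes for 7035 bases, and the upstream transcript for 471. Short coding lengths such as 438 and 471 may be those of transcripts annotated only in part. Cpt1a, of mitochondrial fatty acid import, had 64 and 122 against 56 and 91, an order that turned when other starts within 5 kb of the upstream one were counted with it (internal minus upstream -14.7 percentile points). Pcx, pyruvate carboxylase, had up to 110 and 138 at internal starts, below 132 and 148 upstream.

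Pfkp, Pkm and Plin1 ranked below their upstream starts in both libraries. Pkm, pyruvate kinase, had 57 and 104 against 96 and 137, and Pfkp, a phosphofructokinase, 43 and 90 against 83 and 124. Plin1, which coats lipid droplets, had 48 and 79 against 94 and 134, at an incomplete start.

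Signalling genes held phosphodiesterases, growth factor receptors and adhesion proteins. Pde4d had up to 94 and 133, at an incomplete start, and Pde4b up to 81 in replicate 1 and 128 in replicate 2, at different sites. Neither gene had an upstream peak, and both encode enzymes that degrade cAMP. Fgfr1 had 102 and 135 with none upstream, and Fgfr2 77 and 120 against 76 and 124, an order that differed between libraries. The upstream start of Fgfr2 lies 2857087 bp away, and whether the peak there belongs to another gene was not tested. Tns1, a focal adhesion protein, had 121 and 143 with none upstream. Dlc1 had 103 and 140 against 84 and 121.

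Gnas, the imprinted gene of the stimulatory G protein, had 5 sites at internal starts, of up to 72 in replicate 1 and 130 in replicate 2, and none at its upstream start. Akt2, the insulin-responsive kinase, had 46 and 110 at its stronger internal site and 102 and 129 upstream. Nedd4l, Arhgap24, Fgf1, Map4k4 and Trio likewise ranked below upstream in both libraries at every open internal start. Nedd4l, a ubiquitin ligase, had 21 and 73 against 102 and 137.

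The cytoskeletal list had the most closed upstream starts, 12 of its 17 genes, against 40.1% over all 793 genes. Tpm1 had 116 and 138 at a start 5444 bp downstream, and Tpm3 116 and 143 at 6891 bp. Both starts are those of the short tropomyosins known from non-muscle cells, with 240 coding bases before them and coding sequences of 735 and 744 bases against 852. Plec, the cytolinker plectin with many first exons, had 5 sites of up to 93 and 137. Palld, an actin scaffold, had 106 and 138 in intron 10, and Dab2ip, a Ras GTPase-activating protein, 115 and 144. Col18a1, a basement membrane collagen, had 88 and 115.

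In 4 genes of the list both starts were open. Cald1, which encodes the actin-binding caldesmon, had 106 and 142 at the internal start against 54 and 103. Dst, a giant linker of filaments, had 93 and 129, with an upstream peak of 19 in replicate 1 only. Svil, supervillin, had 79 and 119 against 77 and 118, an order that turned by the same change of rule as in Cpt1a (-4.88 percentile points). Epb41l2 and Myo18a ranked below upstream in both libraries. Ank2, an ankyrin, had 20 and 63 and no upstream peak.

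The list of other lineages gave 5 genes. Cdkn2a had 103 and 130 at the internal start, that of the cyclin-dependent kinase inhibitor p16Ink4a, and 94 and 123 at the upstream start of Arf, and 190 coding bases lay before the internal start. Rbfox2, a splicing regulator, had 109 and 142 against 112 and 142. Bdnf, a neurotrophin known for many promoters, had 3 sites of 35 to 47 and 74 to 102 and no upstream peak. Elf5 had 46 and 87 and Cacna1c, a calcium channel, 31 and 58, both without an upstream peak.

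Sites near the limits of the rule ranged from weak to strong on both sides. Just inside 500 bp lay peaks of Cnih4 (25 and 72), Dcun1d4 (28 and 77) and Dab2ip (115 and 144), with the farther centre at 499.5, -499.5 and 498.5 bp. Just outside lay those of Pmvk (100 and 129), Il11ra1 (76 and 103) and Rasgrf2 (58 and 104), at -500.5, 501.5 and -501.5 bp. At the limit of 5000 bp, the nearest inside were in Prss46 (32 and 65, 5032 bp), Abhd4 (97 and 136, 5044 bp) and Capg (71 and 105, 5060 bp). Pef1 (108 and 141, 4998 bp), Aspa (74 and 110, 4962 bp) and Park7 (114 and 139, 4954 bp) lay just outside.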

How the data were processed

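Peaks and hotspots of 2 DNase-seq libraries were used as deposited, called per library on mm10 per the labels and the text lists deposited with them. The sources used here do not give aligner, caller or depth. Each deposited 150 bp peak carries a signal, whole from 1 to 150, and each deposited hotspot a −log10 of a q value with a ceiling of 100. The scaling of the signal is not stated, so it served only to rank peaks within a library. Identical lines (20 and 33) were dropped, and 337 and 603 peaks off the assembled chromosomes were left out.

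Starts came from GENCODE M21 and sequence from the RefSeq copy of GRCm38, the same build, whose 19 autosomes hold every region. Peaks overlapping by at least 1 bp were merged. Percentiles are midranks. The members and gene lists were chosen with earlier results of these data known. With 1 group, nothing was tested, and shares have exact binomial 95% intervals.

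Named were Pparg, listed genes with an open internal start, the 10 highest sites overall and without an upstream peak, the 5 extremes in each direction, the 5 genes with most sites and those nearest the limits. The last of the 5 genes with most sites were tied with others. A listed gene is not reported here. Python 3.11.15 with pandas 2.3.3, NumPy 2.4.6 and SciPy 1.17.1 was used. The rule was tested on simulated data. Windows, distances, transcripts, peaks and replicates were varied.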

Additional observations from a re-analysis of the deposited data

How the results depend on the processing

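With 2 libraries, 1 group and unknown depth, no difference has a replicate test, and a closed start means only that no peak was called. The 1135 sites became 1718 with a window of 1000 bp around the start and 579 with RefSeq starts only, a setting chosen after seeing the data. The share of internal starts open in both libraries (14.7%) was 19.7% with 1000 bp, 20.7% without incomplete transcripts, 10.7% with the stronger 50% of peaks and 29.5% with RefSeq starts only. The share of closed upstream starts (40.1%) was 46.1% with 250 bp, 34.9% with 1000 bp, 44.5% with the stronger peaks and 46.5% with RefSeq starts. The share ranking above the upstream peak (27.1%) was 31.8% with 250 bp, 22.0% with 1000 bp, 29.5% without incomplete transcripts and 36.5% with RefSeq starts. The median position over the pooled centres of both libraries (-43.5 bp) was -32.5 bp with 1000 bp. CpG-rich starts (35.1%) were 32.0% with 500 bp to each side and 38.9% without incomplete transcripts, which also raised starts before the coding sequence from 47.4% to 53.6%. The cause of these shifts was not tested.

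Leaving out each replicate in turn gave 1274 to 1666 sites, 15.2% to 19.5% open, 40.3% to 45.8% closed upstream, 26.8% to 29.8% ranking higher, positions of -40.5 to -34.5 bp, hotspot widths of 566 to 748 bp, 30.3% to 35.4% CpG-rich and 45.3% to 47.5% before the coding sequence. The order in Svil and Cpt1a turned, to -4.88 and -14.7 percentile points, with 1000 bp and with any start within 5000 bp of the upstream one. Over named sites, 549 recomputed differences from the upstream peak kept their direction and shifted by less than 10 percentile points, 23 shifted more and 4 turned. Sites lost under a setting were not counted. Where several sites matched, the difference farthest in the original direction was taken, so these counts lean towards stability. No paired analysis was possible because there was 1 group.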

Other observations

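The 120 sites at incomplete starts differed from those at complete starts. Of their 115 starts, 83 lay in an exon of the upstream transcript and 6 (5.22%) were CpG-rich, against 38.96% of complete ones. The exonic place was not particular to open sites. Of the 5080 groups with no peak 2584 were in exons, but of the 2889 complete ones among them only 782. Peak centres at incomplete starts had quartiles of -240.25 and 208.5 bp around the start in replicate 1, against -127 and 38 bp at complete starts. Examples were Parp1, the poly(ADP-ribose) polymerase, with 2693 of 3042 coding bases before the site's start, and Plin1.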
